A study of Carassius gibelio with 26 samples.

Results

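The mitochondrial genome of fish, like that of other vertebrates, encodes 7 subunits of NADH dehydrogenase, the first enzyme complex of the respiratory chain (complex I). All but ND6 lie on the same strand, and these 6 genes, ND1, ND2, ND3, ND4L, ND4 and ND5, are described here in the testes of diploid and triploid gibel carp. They were taken from the count table by sequence name, strand and span, as rows on the plus strand of the sequence named MT. They are 6 of the 37 features on that sequence, 15 of which are over 160 bases long, and 6 of 62131 genes in the table. The rule used positions only and no measured level, but the genes were chosen with earlier results of these data known.

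Complex I takes electrons from NADH, passes them to ubiquinone and pumps protons across the inner mitochondrial membrane. The mitochondrially encoded subunits form the core of its membrane arm. ND2, ND4 and ND5 are the large antiporter-like subunits of the proton channels, ND1 lies where the membrane arm meets the ubiquinone site, and ND3 and ND4L are small membrane subunits beside it. Both strands of the mitochondrial genome are copied as long precursors that are cut into separate messages, largely at the transfer RNAs, and ND4L and ND4 remain together on 1 message. Mitochondrial DNA passes through the mother, and so all offspring of 1 gynogenetic female carry hers.

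The features carry IDs and positions but no symbols. On the goldfish (Carassius auratus) annotation ASM336829v1-104, with 1-based positions on MT, ND1 (ENSCARG00000000007) spans 3776 to 4750 and ND2 (ENSCARG00000000011) spans 4966 to 6012. ND3 (ENSCARG00000000026) spans 10575 to 10925, ND4L (ENSCARG00000000028) spans 10994 to 11290, ND4 (ENSCARG00000000029) spans 11284 to 12664, and ND5 (ENSCARG00000000033) spans 12880 to 14703. Each is counted as 1 uninterrupted exon. Their names follow from the gene order of fish mitochondrial genomes. RefSeq's gene table for gibel carp (assembly carGib1.2-hapl.c) lists 13 mitochondrial protein genes in the same order, and 10 of these, among them 4 of the 6 complex I genes, have exactly the length counted here. ND2 and ND3 differ from it by 2 bases each. ND4L and ND4 share 7 bases, and ND5 shares 4 bases with ND6 on the other strand. A fragment that touches both genes of a same-strand overlap is assigned to neither by the counting program's default.

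Testis RNA of 26 males, 2 years old, was sequenced with 1 library per male. Group 1 (n = 5) holds triploid males kept at 28 to 31 °C, and their library names give 31 for replicates 1, 2 and 3 and 28 for replicates 4 and 5. The series describes their maternal line as gynogenetic, with no sex-reversed offspring at 22 °C and only males when warm. Group 2 (n = 5) holds triploid males kept at 28 to 31 °C, with 31 in all 5 library names, and group 3 (n = 6) triploid males kept at 22 °C. In the maternal line of these groups many offspring turned male already at 22 °C. The 2n males (n = 10) came from sexual crosses of diploid fish, and their eggs were kept at 22 °C. Eggs of the triploid groups were activated with sperm of Carassius gibelio, Cyprinus carpio or Abramis brama, and which sperm was used for which male is not given. Ploidy, mode of reproduction and parentage differ together between triploid and 2n males, and group 1 differs from groups 2 and 3 in its maternal line. How many females stand behind each group is not given, so p-values measure the spread between males that may be close kin. Library names carry a number without stated meaning. Males of group 1 have the numbers 4, 5 and 6, those of group 2 the number 11, those of group 3 the numbers 11 and 12, and 2n males 14, 106 and 108.

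Libraries held 15375923 to 29503544 counts. The factors of the normalization used for tests (TMM) were 1.52 and 1.45 in group 1 replicates 1 and 2, and 0.776 to 1.20 in all other males. The labelled tissue could not be set against marker genes, since 0 of the 62131 IDs matched the gene table. For the same reason the 37 nuclear complex I genes listed for this work were not analysed here. Levels below are CPM, the counts of a gene scaled to a common library size by the library's total. Fold changes and tests come from edgeR's quasi-likelihood test fitted over all genes with TMM, with Benjamini-Hochberg adjusted p over all genes and a threshold of 0.05. All 6 genes passed the filter on low counts, and the smallest count of ND4L, the lowest of them, was 319. In a whole testis, fewer cells of a type and less RNA per cell cannot be told apart.

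Per kilobase of length, ND1 and ND4 had the most counts of the 6 genes and ND4L the fewest. ND1, the subunit at the ubiquinone site, had a mean of 433 ± 68.3 CPM per kb in group 1, 269 ± 73.3 in group 2, 321 ± 32.8 in group 3 and 390 ± 125 in 2n males (SD, n = 5, 5, 6 and 10). ND4 followed with 427 ± 63.1, 230 ± 47.8, 276 ± 20.9 and 353 ± 97.6 CPM per kb in groups 1, 2 and 3 and in 2n males. Next came ND3 with means of 292, 209, 231 and 277, ND2 with 253, 145, 168 and 227, and ND5 with 228, 117, 148 and 189 CPM per kb in the same order of groups. ND4L had 152 ± 24.3, 73.3 ± 18.9, 94.6 ± 2.91 and 129 ± 43.1 CPM per kb in groups 1, 2 and 3 and in 2n males.

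The whole order ND1, ND4, ND3, ND2, ND5, ND4L was found in 19 of 26 males, among them 3 of 5 in group 1, 5 of 5 in group 2, 6 of 6 in group 3 and 5 of 10 in 2n. Neighbours were close in most places. ND4 stood at 91.1 ± 8.89% of ND1 per length (SD, n = 26), and ND1 was the higher in 22 of 26 males. ND3 stood above ND2 in 24 males, and ND4 above ND3, like ND2 above ND5, in 25 males. ND5 stood above ND4L in 26 of 26 males, with ND4L at 66.0 ± 6.85% of ND5. The means of ND1 and ND4 differed by less than the SD over males in groups 1, 2 and 2n, but not in group 3. ND4L and ND4, which share a message, differed in counts per length. ND4L stood at 34.7 ± 3.08% of ND4 (SD, n = 26), with a range of 28.9% to 41.7%. This is a difference between counted features and not between separate messages. By the program's default, fragments over the 7 shared bases were counted for neither, and the part of this in the difference was not tested.

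Among the other mitochondrial features, COX1, the catalytic core subunit of cytochrome c oxidase, had means of 2240, 1900, 2030 and 2200 CPM per kb in groups 1, 2 and 3 and in 2n males, above all 6 complex I genes. CYTB, the cytochrome b subunit of complex III, was also above them, with 881, 561, 658 and 740 CPM per kb. ND6, the complex I gene on the other strand, was far below them, with 5.7, 6.34, 6.56 and 7.76 CPM per kb. ATP8, which is 165 bases long, had 24.2, 15.2, 20.1 and 19.1 CPM per kb. ATP6, which overlaps ATP8 on the same strand, had 913, 622, 702 and 763 CPM per kb. All of these are levels in poly(A)-enriched RNA. By the program's default, fragments that touch both ATP8 and ATP6 were counted for neither. The part of this in the low level of ATP8 was not tested.

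**Figure D1:**
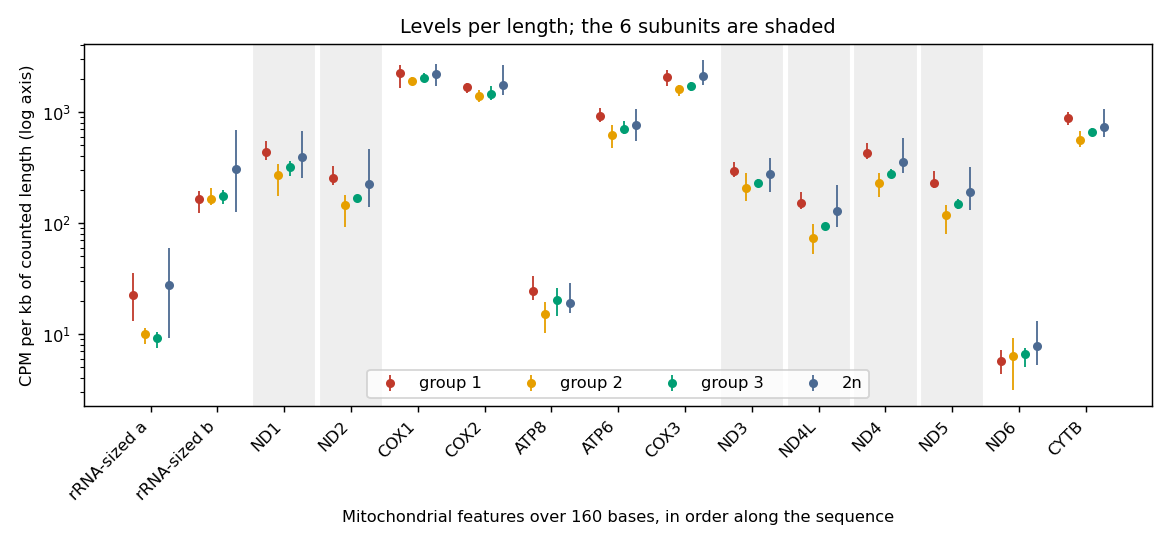
Level of the mitochondrial features per kilobase of length (CPM per kb, log axis) in groups 1, 2, 3 and 2n males; points are group means, bars run from the lowest to the highest male, and the 6 complex I genes are shaded. ND1 and ND4 lead the 6 in every group, ND4L is the lowest, and COX1 and CYTB lie above all 6.

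In triploid males as a whole, none of the 6 genes passed the test against 2n males. The log2 fold changes of triploid against 2n males ran from -0.19 in ND4L to -0.08 in ND3, with a median of -0.10 against -0.02 over all 39578 genes tested. Without 2n replicate 10 the median of the 6 was -0.0016, and without 2n replicate 5 it was -0.05. In edgeR adjusted p ran from 0.36 to 0.69, so 0 of 6 passed, where 25.5% of all genes did. By unadjusted p under 0.05 it was 0 of the 6, and 37.5% of all genes. DESeq2 and limma-voom called 0 of the 6, where they called 28.2% and 47.5% of all genes. For ND4L the log2 fold change was -0.19 ± 0.15 (SE), and for ND1 -0.09 ± 0.15. The 3 triploid groups, however, stood at different mean levels.

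In CPM, group 2 had the lowest mean level of all 6 genes and group 1 the highest; with TMM scaling group 2 was still the lowest in all 6, but group 1 was the highest for ND4L, ND4 and ND5 alone. ND4L, a small subunit of the membrane arm, had 39.4, 57.1, 46.2, 41.3 and 41.1 CPM in the males of group 1 (replicates 1 to 5). In group 2 it had 17.7, 15.7, 20.6, 25.8 and 29.2 CPM. In group 3 the 6 males lay between 26.5 and 28.9 CPM with a median of 28.2, and 2n males ran from 27.2 to 64.9 CPM with a median of 31.8. In CPM all males of group 1 were above all males of groups 2 and 3, as in 39.9% and 36.8% of all genes. With TMM scaling group 1 overlapped with groups 2 and 3. Each of the 3 triploid groups overlapped with 2n males. Means were 45 ± 7.22 CPM in group 1, 21.8 ± 5.62 in group 2, 28.1 ± 0.865 in group 3 and 38.3 ± 12.8 in 2n males (SD).

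ND4, a large antiporter-like subunit and the gene with the most counts of the 6, had 520.1, 732, 612, 545 and 538 CPM in the males of group 1. In group 2 it had 260.2, 239.5, 331, 389.3 and 369.6 CPM. It ran from 351 to 423 CPM in group 3, with a median of 377, and from 389.5 to 801 CPM in 2n males, with a median of 442. In CPM the group 2 males were all below the 2n males, as in 10.9% of all genes, with the nearest of each group at 389.3 and 389.5 CPM. With TMM scaling the groups overlapped, with a highest value of 444.5 in group 2 and a lowest of 328 in 2n, and per COX count they overlapped too. ND5, the antiporter-like subunit at the far end of the arm, had 378, 538, 395, 394 and 377 CPM in group 1. In group 2 it had 161, 145, 263, 245 and 255 CPM, in group 3 between 244 and 299 with a median of 263, and in 2n males between 238 and 581 with a median of 305. In CPM groups 1 and 2 again did not overlap, and 39.9% of all genes had group 1 wholly above group 2. With TMM scaling groups 1 and 2 overlapped in ND5. Group 2 overlapped with groups 3 and 2n.

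ND1 had 363, 534, 389, 424 and 399 CPM in group 1 and 205, 170.2, 320, 330.0 and 289 CPM in group 2. Group 3 males had 258 to 353 CPM of ND1 with a median of 318, and 2n males 250 to 664 with a median of 350. ND2, the third antiporter-like subunit, had 257, 345, 236, 256 and 230.2 CPM in group 1 and 115, 96.3, 187, 186 and 175 CPM in group 2. Group 3 males lay close together at 171 to 182 CPM of ND2, median 175, inside the range of 146 to 491 CPM of 2n males, whose median was 204. ND3, the other small subunit, had 91.8, 125, 103, 93.3 and 100.1 CPM in group 1 and 64.5, 55.0, 69.2, 98.9 and 79.4 CPM in group 2. Its values were 75.4 to 86.9 CPM, median 81.6, in group 3 and 67.5 to 134 CPM, median 98.2, in 2n males. ND3 was the 1 gene of the 6 in which groups 1 and 2 overlapped on this scale, where 39.9% of all genes had group 1 wholly above group 2. With TMM scaling the 2 groups overlapped in all 6.

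**Figure D2:**
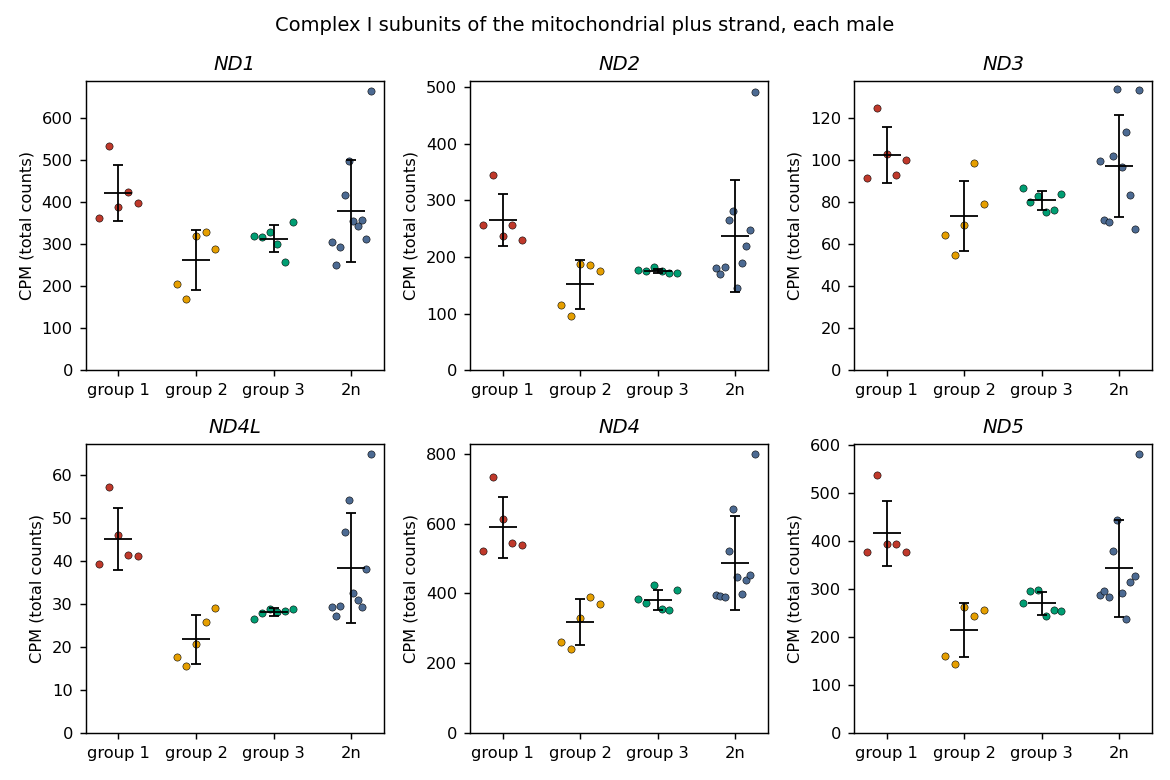
Level of each of the 6 complex I genes (CPM) in every male, by group in the order group 1, group 2, group 3 and 2n; each point is a male and the bars give the mean and SD. Group 2 has the lowest mean in each panel, and the lowest group 2 points, at 15.7 and 17.7 CPM for ND4L, are replicates 2 and 1.

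Group 1 against group 2 compares warm-reared triploid males of the 2 maternal lines, which by the library names also differ in temperature, with 2 group 1 males at 28 °C and no group 2 male. ND4L, ND4 and ND5 were higher in group 1, and these 3 neighbouring genes were the only ones of the 6 to pass. The log2 fold change of group 1 against group 2 was 0.60 ± 0.20 for ND4L, or 1.52-fold (SE; adjusted p = 0.017). For ND5 it was 0.51 ± 0.19, or 1.42-fold (adjusted p = 0.032), and for ND4 0.45 ± 0.18, or 1.36-fold (adjusted p = 0.048). The ND4 call did not hold with RLE size factors (0.41, adjusted p = 0.074), with DESeq2 (0.41, adjusted p = 0.061) or with only the 2 groups fitted (0.46, adjusted p = 0.069). ND2 with 0.34 ± 0.23, ND1 with 0.24 ± 0.22 and ND3 with 0.04 ± 0.20 did not pass (adjusted p = 0.22, 0.38 and 0.89). In this comparison 47.9% of all 42352 genes passed, 25.8% as higher in group 1. The 3 of 6, all higher, are near the first share and above the second. The 3 genes are neighbours that moved together from male to male, so their calls are not separate and the count cannot be weighed against either share. The median log2 fold change of the 6 genes was 0.39, and that of all genes 0.10.

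The fold changes in this comparison move with the scaling. With library totals in place of TMM, an alternative chosen after seeing the data, the median over all genes was 0.58, 6 of 6 genes passed, where 60.8% of all genes did, and ND4L stood at 1.05. The median of the 6 genes lay above the median of all genes by 0.29 with TMM, and by 0.06 to 0.44 in the alternatives run. In CPM, 5 of the 6 genes had all 5 group 1 males above all 5 group 2 males, as did 39.9% of all genes; with TMM-scaled CPM it was 0 of 6, where 21.8% of all genes had it.

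With group 1 limited to the 3 males whose library names give 31, an alternative chosen after seeing the data, 1 of 6 genes passed, where 48.7% of all genes did. The log2 fold changes were then 0.60 for ND4L, 0.49 for ND5 and 0.44 for ND4 (edgeR; adjusted p = 0.046, 0.08 and 0.1).

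The calls also rest on 2 males of group 2. Replicate 2 of group 2 was the lowest of its group in all 6 genes, and replicate 1 was the second lowest in each. In CPM the same 2 males were also the lowest of group 2 in COX1, COX2, ATP8, ATP6, ND6 and CYTB, but not in COX3. Their low levels are thus not particular to the 6 genes. How often these males are lowest over all genes was not computed. The number of the 6 genes higher in group 1 was 1 without group 2 replicate 1, 0 without group 2 replicate 2 and 1 without group 1 replicate 2. Of all genes, 21.8%, 23.1% and 22% were higher in group 1 in these fits, and 25.8% with all males. Without both replicates 1 and 2 of group 2, left out because their values were low, the log2 fold changes were 0.40 for ND4L, 0.26 for ND4 and 0.26 for ND5 (edgeR; adjusted p = 0.18, 0.34 and 0.32). In that fit 0 of 6 passed, where 34.2% of all genes did, 17.7% as higher in group 1. The library-name number and the group cannot be told apart here, since no number occurs in both groups. Without group 1 replicates 1 and 2, whose TMM factors stood apart, the values were 0.72 for ND4L, 0.61 for ND5 and 0.58 for ND4 (edgeR; adjusted p = 0.02, 0.036 and 0.033). Here 27.4% of all genes passed, 15.3% as higher in group 1.

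The other mitochondrial protein genes on the plus strand lay on both sides of 0 in the same comparison. CYTB, ATP8 and ATP6 had log2 fold changes of 0.22, 0.22 and 0.11 in group 1 against group 2, between those of ND3 and ND1, and none passed. COX1, COX2 and COX3 had log2 fold changes of -0.17, -0.18 and -0.07 in group 1 against group 2, and none passed. Of the 9 mitochondrial features over 160 bases outside the 6, 0 passed in this comparison in edgeR, and ND6 alone had an unadjusted p under 0.05 (0.047). Set against the summed counts of COX1, COX2 and COX3, a ratio within each library that no scaling factor touches, the 6 genes had 33.2, 35.6, 24.7, 29.5 and 25.7 counts per 100 in group 1. In group 2 the ratio was 17.2, 14.6, 24.4, 22.5 and 21.4. All 5 group 1 males were above all 5 group 2 males, but the nearest lay only 24.7 against 24.4 apart. No share over all genes was computed for a sum of genes. Group 3 males lay between 21.4 and 24.7, and 2n males between 19.8 and 39.2 with a median of 23.9. Of the single genes, ND4L, ND4 and ND5 had ranges that did not overlap between groups 1 and 2 on this ratio, as 18.7% of all genes had in the same direction. The ranges of ND1, ND2 and ND3 overlapped. ND4 averaged 9.5 ± 1.29 per 100 COX counts in group 1 and 6.11 ± 0.907 in group 2, ND5 6.73 ± 1.18 and 4.11 ± 0.978, and ND4L 0.725 ± 0.105 and 0.417 ± 0.0779 (SD, n = 5 each). The low ratio of group 2 replicates 1 and 2 came with summed COX levels of 4782 and 4926 CPM, where the other 3 males of the group had 4875, 5657 and 5606 CPM. The ratio depends on the COX genes as denominator, and their log2 fold changes in this comparison were negative. Group 2 replicate 3 had 1190 CPM of the 6 genes and 604.6 of CYTB, and group 1 replicate 3 had 1781 and 1067. Relative to CYTB this group 2 male was the higher, so groups 1 and 2 overlap on that scale.

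**Figure D3:**
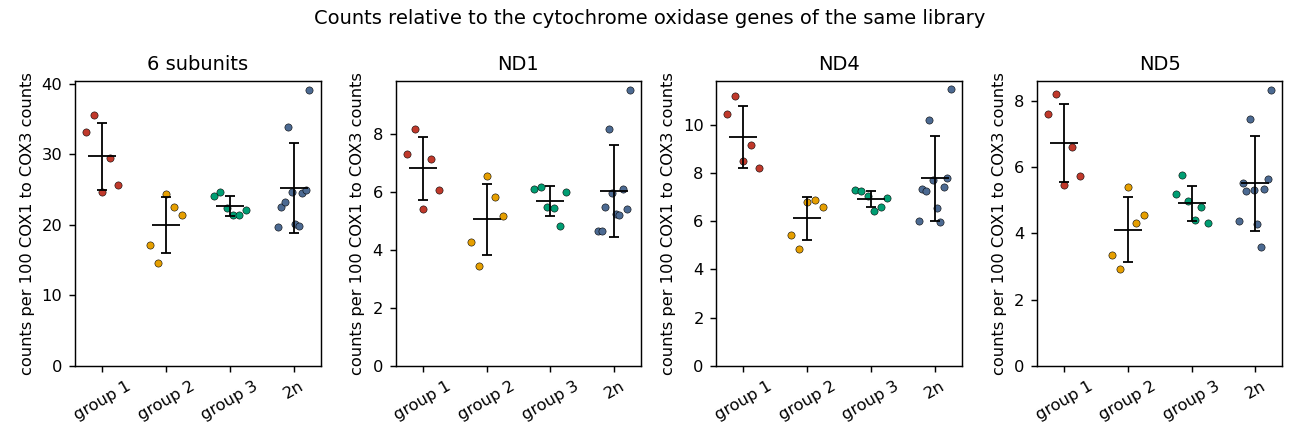
Summed counts of the 6 complex I genes, and counts of single genes, per 100 counts of COX1, COX2 and COX3 in every male, in the order group 1, group 2, group 3 and 2n; bars give mean and SD. For the summed genes, group 1 males lie at 24.7 to 35.6 and group 2 males at 14.6 to 24.4, and 2n males reach 39.2.

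Against 2n males, group 2 was lower in 1 of the 6 genes. On the TMM scale of the test, ND4L averaged 24.7 in group 2 and 36.1 in 2n males, and its log2 fold change was -0.55 ± 0.18 (SE; edgeR, adjusted p = 0.02). In that comparison 35.2% of all genes passed, and 21.1% were lower in group 2, so 1 of 6 does not stand out from the background. The other 5 had negative values that did not pass: ND5 -0.42 ± 0.17, ND2 -0.37 ± 0.20, ND4 -0.35 ± 0.16, ND1 -0.27 ± 0.19 and ND3 -0.15 ± 0.17 (adjusted p = 0.057, 0.15, 0.093, 0.28 and 0.51). Of the 6, 3 had an unadjusted p under 0.05, as had 45.3% of all genes. The median of the 6 was -0.36, and that of all genes -0.11. The lower ND4L level did not pass without group 2 replicate 1 (-0.48, adjusted p = 0.065), without replicate 2 (-0.45, adjusted p = 0.076) or without both (-0.34, adjusted p = 0.24). With only group 2 and 2n fitted it was -0.56 (adjusted p = 0.059). With library totals only, 6 of 6 genes passed as lower, where 46.9% of all genes passed and 38.6% were lower. Against the 4 2n males of library-name number 108 alone 4 of 6 passed as lower, where 45.8% of all genes passed and 27.1% were lower. Against the 5 of number 14 alone it was 1 of 6, where 39.6% of all genes passed and 23.2% were lower.

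In groups 1 and 3, none of the 6 genes passed against 2n males. In group 1 against 2n, log2 fold changes ran from -0.12 in ND3 to 0.10 in ND4, with adjusted p from 0.63 to 0.93. Of all genes, 34% passed in that comparison. In group 3 against 2n, which were kept at the same temperature, they ran from -0.15 in ND4L to 0.02 in ND3, with adjusted p from 0.46 to 0.96. Here 44.4% of all genes passed. In both comparisons 0 of the 6 had an unadjusted p under 0.05 in edgeR, where 44.2% of all genes had in group 1 and 52.4% in group 3. DESeq2 called 0 of the 6, with 35.6% and 45.8% of all genes in groups 1 and 3. The limma-voom fit also called 0 of the 6, with 29.7% and 50% of all genes. The same 0 was found against the 2n males of number 108, where 31.9% of all genes passed in group 1 and 52.3% in group 3. It was also found against those of number 14, where 42.8% and 45.5% of all genes passed. These 3 comparisons with 2n share the same 10 males.

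Group 1 against group 3 compares triploid males that differ in maternal line and in temperature. In CPM all 5 group 1 males were above all 6 group 3 males in 6 of 6 genes, as were 36.8% of all genes. With TMM the log2 fold changes were small, from -0.13 in ND3 to 0.21 in ND4L. In edgeR 0 of 6 passed (adjusted p 0.36 to 0.87), where 56.5% of all genes did. By unadjusted p under 0.05 it was 0 of 6, and 61.5% of all genes. On TMM-scaled CPM the ranges were apart in 0 of 6 genes, where 23.8% of all genes had group 1 above. The median over all genes was 0.09 with TMM and 0.59 with library totals, under which 4 of 6 genes passed and 63.4% of all genes did. DESeq2 called 0 of the 6, where it called 57.5% of all genes. The limma-voom fit called 2, ND4L and ND4 (0.31 and 0.27, adjusted p = 0.034 and 0.038), where it called 66.6% of all genes. Per COX count, ND4L and ND4 still had ranges that did not overlap, as 22.3% of all genes had in that direction. ND6, outside the 6, was lower in group 1, with a log2 fold change of -0.66 ± 0.27 (adjusted p = 0.037); in group 1 against group 2 it was -0.58 ± 0.28 (adjusted p = 0.087).

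Group 2 against group 3 compares warm and 22 °C rearing of triploid males whose mothers are described alike. All 6 log2 fold changes were negative, from -0.39 ± 0.20 in ND4L and -0.37 ± 0.19 in ND5 to -0.17 ± 0.19 in ND3, with a median of -0.29 and a median of 0.006 over all genes. The median of the 6 was -0.19 without group 2 replicate 2, and -0.08 without group 2 replicates 1 and 2, where ND2 stood at 0.02. None passed in edgeR (adjusted p = 1), nor did any other gene, so the background was 0%. By unadjusted p under 0.05 it was 0 of 6 genes and 1074 of 42352. DESeq2 and limma-voom also called 0 of the 6, where each called 1 of 42352 genes. The 2 groups overlapped in all 6 genes in CPM, and the mean of group 2 was the lower in each.

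**Figure D4:**
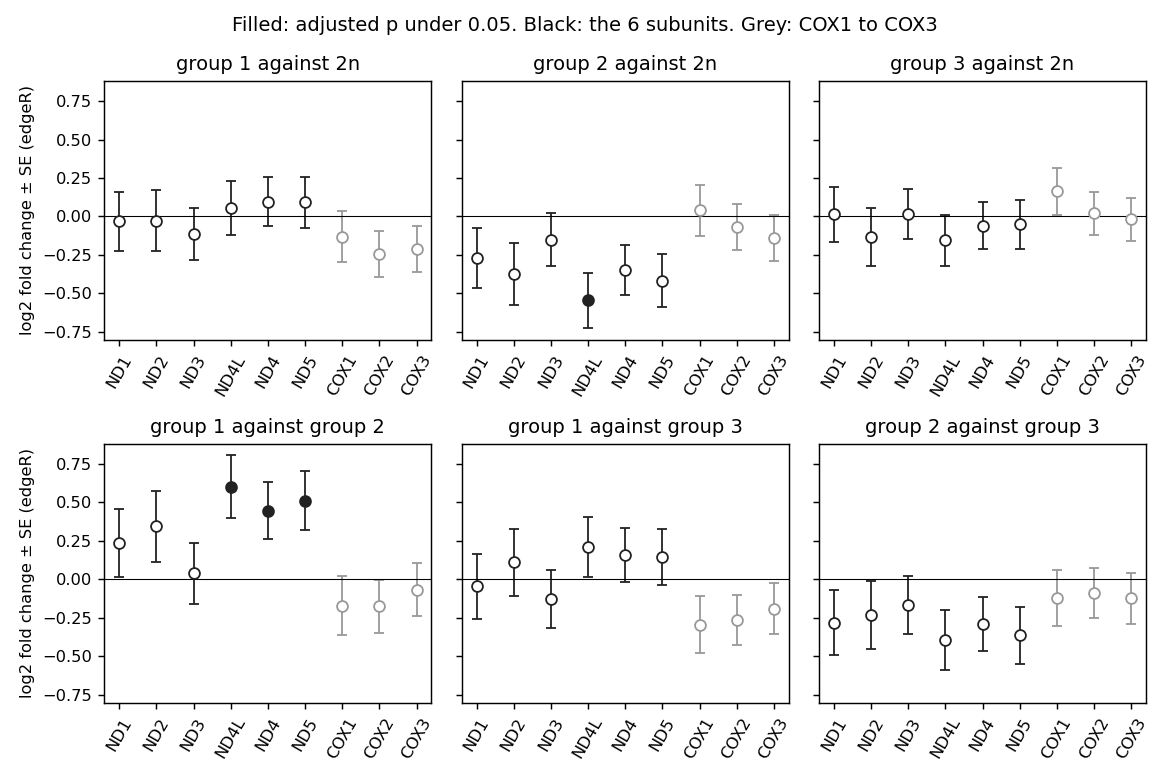
Log2 fold changes (TMM scale, with SE) of the 6 complex I genes, in black, and COX1, COX2 and COX3, in grey, in 6 comparisons between single groups. The comparison of all triploid with 2n males is not drawn. Filled points have an adjusted p under 0.05 over all genes. Filled black points are ND4L, ND4 and ND5 in group 1 against group 2 and ND4L in group 2 against 2n.

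The spread of the 6 genes between males was unequal in the 4 groups. It was not computed over all genes, so it is not shown to be particular to the 6. In CPM, the coefficient of variation of the 6 genes ran from 12.9% to 17.4% in group 1, from 20.8% to 28.4% in group 2, from 2.31% to 10.2% in group 3 and from 25.1% to 41.9% in 2n males. With TMM scaling it ran from 13.1% to 18.1% in group 1, from 19.5% to 27.5% in group 2, from 5.49% to 14.9% in group 3 and from 25.9% to 39.2% in 2n males. In 2n, replicate 10 had the highest level of 5 of the 6 genes and replicate 5 that of ND3. Within group 1, replicate 2 was the highest in all 6 in CPM, and in 0 of 6 with TMM scaling. Without 2n replicate 10, the means of 2n males were 35.3 ± 9.29 CPM for ND4L and 209 ± 46.6 CPM for ND2 (SD, n = 9). The 2n males of library-name number 108 had 306 ± 125 CPM of ND2 (SD, n = 4) and those of number 14 had 193 ± 51.7 CPM (SD, n = 5). Per 100 COX counts, the 6 genes stood at 30.6 ± 7.17 in the 4 males of number 108 and at 21.4 ± 2.15 in the 5 of number 14, with ranges of 24.5 to 39.2 and 19.8 to 24.6. On the same ratio the means were 29.7 ± 4.7 in group 1 and 20 ± 4.01 in group 2. The difference between the numbers was not tested here.

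The shares of the genes in the summed counts of the 6, which no scaling touches, are given with no test made. The mean share of ND2 was close in all groups, at 14.4, 14.4, 14.1 and 14.7% in groups 1, 2 and 3 and in 2n males. ND3 made up 5.59 ± 0.268% in group 1, 7.13 ± 0.885% in group 2, 6.49 ± 0.255% in group 3 and 6.28 ± 1.24% in 2n males (SD). Its range was 5.32 to 5.94% in group 1, 6.16 to 6.87% in group 3 and 5.81 to 7.84% in group 2. The range of 2n males, 4.68 to 8.65%, covered those of the triploid groups. How often ranges lie apart on such a share over all genes was not computed. The shares are parts of 1 sum, so a lower share of ND3 goes with higher shares of other genes of the 6. ND5 made up 22.2 to 23.1% in group 1 and 19.2 to 22.1% in group 2, with 19.6 to 23.4% in group 3 and 18.1 to 24.5% in 2n males. ND4 made up 32.1 ± 1.31% in group 1, 30.8 ± 1.98% in group 2, 30.5 ± 0.833% in group 3 and 30.9 ± 1.07% in 2n males. Together the 6 genes took 19.0 ± 2.11% of the counts on the mitochondrial protein genes in group 1, 14.2 ± 2.28% in group 2, 15.6 ± 0.833% in group 3 and 17.0 ± 3.02% in 2n males.

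**Figure D5:**
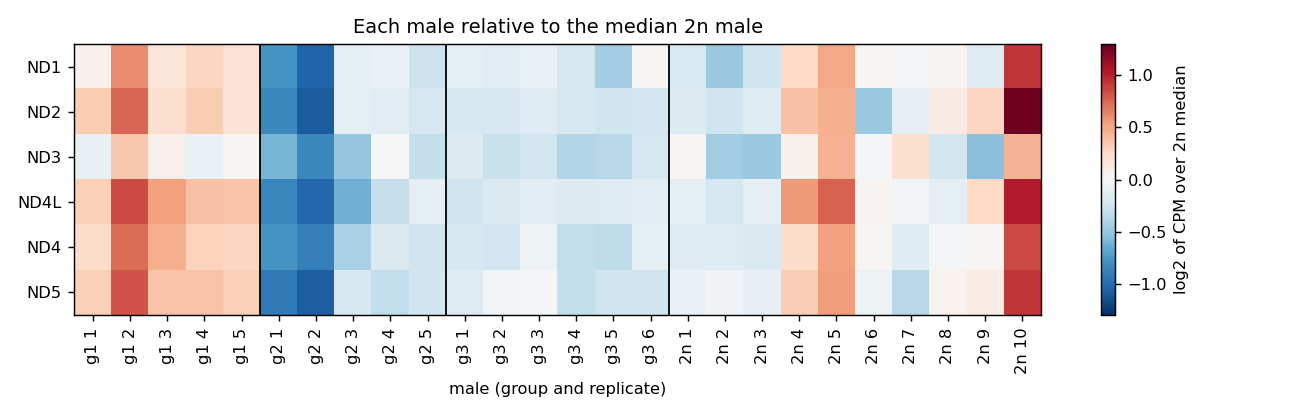
Log2 of CPM of each complex I gene in every male relative to the median 2n male; males run from group 1 through groups 2 and 3 to 2n. Group 2 replicates 1 and 2 are low in all 6 rows, from -0.61 to -1.08, and 2n replicate 10 is high in all 6, from 0.44 to 1.27.

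From male to male, once each group's mean was taken out, the 6 genes moved together. Pearson's r of log2 CPM between pairs of them ran from 0.606 for ND2 and ND3 to 0.95 for ND1 and ND4 over 26 males. The 26 points share library preparation, depth and the same scaling, and r is given as a description. ND4L and ND4, on 1 message, had r = 0.942, no higher than ND1 and ND4, which lie apart. Of the other 42346 genes tested, those whose centred levels were most like the mean of the 6 were ATP6, a membrane subunit of ATP synthase (r = 0.914), and CYTB (r = 0.879). The nearest features outside the mitochondrial genome were ENSCARG00000052170 on an unplaced scaffold (r = 0.822), and ENSCARG00000061628 on chromosome 24, at 12867475 to 13048786 on the minus strand (r = 0.803). ATP8, the other mitochondrial ATP synthase subunit, came at rank 6 (r = 0.8). ND6 came at rank 8 (r = 0.785), although it is on the other strand, and COX3, COX2 and COX1 at ranks 287, 166 and 960 (r = 0.615, 0.645 and 0.531).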

How the data were processed

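Testis libraries of 26 males were stranded and poly(A)-enriched with molecular identifiers, and read as 150 base pairs per end, per the labels' protocols. The deposited values are raw read counts per gene made with featureCounts 2.0.6 in reverse-stranded mode on the goldfish annotation ASM336829v1-104, without multi-mapping or multi-overlap options, per the file headers. The deposited table also holds the length of each feature in bases. The submitters' processing notes also name STAR 2.7.3a, Subread 2.0, Picard 2.25.6, FastQC, MultiQC 1.10.1 and cutadapt 4.3. The sources used here do not say whether the identifiers were used to remove duplicates. How far the mitochondrial sequences of these males differ from the goldfish sequence was not tested.

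Groups follow the sample titles. The members and lists were chosen with earlier results of these data known, and the parts of the gene naming rule are all 6 members, the mitochondrial features over 160 bases, and the genes most like the mean of the 6 by Pearson's r. Tests used edgeR 4.0.16 (limma 3.58.1, R 4.3.3): TMM, the edgeR filter with a minimum count of 10, robust quasi-likelihood fits, and adjusted p over all genes. A 2-group model (39578 genes) served triploid against 2n males and a 4-group model (42352 genes) the other 6 comparisons; SE came from the F statistic. CPM used library totals, and log2 CPM a prior count of 2. The test was run on simulated data with known changes in few genes, unlike the large shares called in most real comparisons. Its outcome is not given here and is not used as support. The simulated libraries had the real library sizes but no unequal scaling factors, so this does not bear on the choice of scaling. No 2 libraries of a group held identical values (chi-square per gene at least 4.23), and 0 per-sample columns were left out. Of 31 same-numbered pairs of males from different groups, 4 had a correlation over 0.1. Differently numbered pairs were not set beside them, so this cannot exclude that replicate numbers pair males. Other normalizations, DESeq2 1.42.0, limma-voom with sample weights, no filter, a replicate block, subsets of males and leaving out each male were run as alternatives. The 37 nuclear complex I symbols and the cell type markers matched 0 IDs.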

Additional observations from a re-analysis of the deposited data

Results flagged for a closer look

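In CPM, 1 male stood apart from the rest of its group by Dixon's test in 4 of the 24 combinations of gene and group. Chance gives about 1 in 20 for a single test, but the 6 genes move together from male to male, so the 24 are not separate tests, and the same male accounts for 2 of the 4. ND2 had 345 CPM in group 1 replicate 2, against 257 CPM in the next highest male of group 1, and 491 CPM in 2n replicate 10, against 281 CPM in the next 2n male. ND5 had 538 CPM in group 1 replicate 2, with the next male at 395 CPM. With TMM scaling neither value of that male stood apart: ND2 was 238.8, with 240.4 in replicate 4, and ND5 was 372.4, with 372.8 in replicate 3. ND4L had 26.5 CPM in group 3 replicate 1, below the next male of group 3 at 28.0 CPM, in a group whose highest was 28.9 CPM; with TMM scaling the same male was the highest of group 3, at 34.2. The differences from 2n males were unequal in groups 1 and 2 for 3 genes, tested as group 1 against group 2 in edgeR. The log2 fold change between these groups was 0.60 for ND4L, 0.51 for ND5 and 0.45 for ND4 (edgeR, adjusted p = 0.017, 0.032 and 0.048). None of the 3 passed once group 2 replicates 1 and 2 were left out. These males were picked because their values were low, which made the loss of calls likely, so this is no separate check. Of all genes, 34.2% passed then, and 47.9% with all males.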

How the results depend on the processing

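No call was made for any of the 6 genes in triploid against 2n, group 1 against 2n or group 2 against group 3 under any alternative run. Of all genes, 16.5% to 47.5% passed in triploid against 2n and 18.8% to 42.8% in group 1 against 2n. In group 2 against group 3 at most 0.00538% did. Elsewhere the counts of genes passing moved. In group 2 against 2n, 1 of the 6 passed, with 35.2% of all genes. The number was 2 with upper quartile normalization (35.3% of all genes), 3 with limma-voom (41.1%) and 4 with 2n limited to library-name number 108 (45.8%). It was 0 with only these groups fitted (28.9%), 6 with library totals only (46.9%) and 0 without group 2 replicates 1 and 2 (19.1%). Leaving out single males gave 0 to 2. The number was 0 without group 2 replicate 1 (27.9%) or 2 (28.5%). It was 2 without group 2 replicate 3 (29.5%) or 2n replicate 2 (33%), 3 (37.3%) or 7 (37.1%). In group 3 against 2n, 2 passed with library totals only, where 52.5% of all genes did. In group 1 against group 2, 3 of the 6 passed, with 47.9% of all genes. The number was 5 with limma-voom (58.6% of all genes) and 6 with library totals only (60.8%). It was 1 with group 1 limited to library-name temperature 31 (48.7%) and 0 without group 2 replicates 1 and 2 (34.2%). Leaving out single males gave 0 to 3, where 39.3% to 48.9% of all genes passed, and ND4 passed in 2 of 10 such fits. In group 1 against group 3, 2 passed with limma-voom (66.6% of all genes) and 4 with library totals only (63.4%). Library totals only, group 3 limited to number 11, group 1 limited to temperature 31 and leaving out group 2 replicates 1 and 2 were chosen after seeing the data. The replicate numbers are not known to pair males. With them as a block, 1 of the 6 passed in group 2 against 2n (30.2% of all genes) and 3 in group 1 against group 2 (48.9%). No call of the 6 changed, and 6537 genes in all passed in triploid against 2n where 10090 had passed. Over all genes that comparison had 18795 calls with limma-voom and 15539 without group 1 replicates 1 and 2. Of calls in group 1 against group 2, 53.7% were higher in group 1 with TMM, 68.6% with upper quartile normalization and 83.4% with library totals.

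With TMM-scaled CPM, levels per kb moved to 361 in group 1 and 373 in group 3 for ND1, 194 in group 3 for ND2, 244 in group 1 and 267 in group 3 for ND3, 126 and 109 for ND4L, 356 and 320 for ND4, and 189 and 171 for ND5 in the same groups.

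Fold changes took the other sign in these cases, none of them past the threshold. With the replicate number as a block, log2 fold changes were ND1 0.048 and ND2 0.036 in triploid against 2n males, ND1 0.11 and ND2 0.16 in group 1 against 2n and ND2 0.11, ND4 0.025 and ND5 0.019 in group 3 against 2n. With 2n limited to number 14, they were ND2 0.088 and ND5 0.010 in triploid against 2n males, ND1 0.064 and ND2 0.25 in group 1 against 2n and ND2 0.11, ND3 -0.11, ND4 0.0034 and ND5 0.058 in group 3 against 2n. With upper quartile normalization, they were ND1 0.12, ND2 0.13 and ND3 0.044 in group 1 against 2n, ND1 -0.054 and ND3 -0.043 in group 3 against 2n and ND1 0.18 and ND3 0.088 in group 1 against group 3. With limma-voom, they were ND1 0.091, ND2 0.062 and ND3 0.034 in group 1 against 2n and ND1 0.048 in group 1 against group 3. With 2n limited to number 108, they were ND4L -0.10, ND4 -0.021 and ND5 -0.065 in group 1 against 2n and ND1 -0.14 in group 3 against 2n. Without group 1 replicates 1 and 2, they were ND1 0.095, ND2 0.037 and ND3 0.02 in group 1 against 2n and ND1 0.081 and ND3 0.0003 in group 1 against group 3. With only the compared groups fitted, they were ND1 0.0047 and ND2 0.011 in group 1 against 2n and ND1 -0.014 and ND3 -0.0069 in group 3 against 2n. With library totals only, they were ND1 0.15, ND2 0.16 and ND3 0.077 in group 1 against 2n, ND1 -0.28 and ND3 -0.27 in group 3 against 2n and ND1 0.43 and ND3 0.34 in group 1 against group 3. Without group 2 replicates 1 and 2, they were ND3 0.0083 in group 2 against 2n, ND1 -0.0098 and ND3 -0.13 in group 1 against group 2 and ND2 0.020 in group 2 against group 3. With group 3 limited to number 11, they were ND1 -0.065 and ND3 -0.077 in group 3 against 2n and ND1 0.037 in group 1 against group 3. With RLE size factors and with DESeq2, it was -0.0022 for ND3 in group 1 against group 2. With single males left out, log2 fold changes lay on both sides of 0 for ND1 -0.15 to 0.026, ND4 -0.14 to 0.0043 in triploid against 2n males, ND1 -0.10 to 0.11, ND2 -0.087 to 0.17, ND4L -0.0062 to 0.19 in group 1 against 2n, ND1 -0.049 to 0.11, ND2 -0.21 to 0.021, ND3 -0.056 to 0.064, ND4 -0.10 to 0.025, ND5 -0.11 to 0.041 in group 3 against 2n, ND3 -0.051 to 0.17 in group 1 against group 2 and ND1 -0.12 to 0.055 in group 1 against group 3. The cause was not tested.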
